A study of Mus musculus with 6 samples.

Results

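Microtubules are hollow polymers of alpha and beta tubulin, and a set of proteins binds along them or at their growing ends. Most of the 10 genes described here encode such proteins. They are the MAP1 proteins Map1a and Map1b, the tau-type proteins Map2, Map4 and Mapt, the neuron navigators Nav1, Nav2 and Nav3, and doublecortin (Dcx). The last gene, Tubb3, encodes a neuronal beta tubulin, which is part of the polymer itself. The 10 genes were taken by gene symbol from a table of 24470 genes, and all 10 were found and passed the filter on low counts. Map1b and Nav2 were placed in the set because they were higher in the knockout in an earlier test of these same libraries, whereas the other 8 were added as relatives. The contrast values of Map1b and Nav2 are therefore given as a description, with no p-value, and counts that include them are not evidence.

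The RNA came from whole mouse testes at E12.5, an embryonic stage when Sertoli cells have enclosed the germ cells in cords. The 3 control samples had the genotype Ppp1r3c f/f, with floxed alleles and no Cre, and the 3 cKO (conditional knockout) samples had the genotype Sf1-Cre Ppp1r3c f/f. Both lines were kept on a C57BL/6 background, and each sample pooled 2 pairs of gonads. The Cre is driven by Nr5a1 (Sf1) sequences, which are active in somatic progenitors of the gonad including those of Sertoli cells, so effects of the Cre transgene and of the deletion cannot be told apart. Ppp1r3c encodes a protein phosphatase 1 subunit that promotes glycogen synthesis.

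Library totals ranged from 16139487 counts in control replicate 1 to 44145158 counts in control replicate 2. Ppp1r3c was at 22.1 to 24.4 CPM (counts relative to the effective library size, on one scale for all libraries) in the control libraries and at 4.71 to 5.96 CPM in the cKO libraries. All 6 Sertoli cell markers examined were detected in every library, with summed levels of 1338 to 1724 CPM in control and 1309 to 1762 CPM in cKO testes. One library stood apart: in cKO replicate 3, Xist, the RNA of the inactive X chromosome, was at 379 CPM and the pre-granulosa gene Fst at 50.9 CPM, against at most 1.0 and 2.02 CPM in the other libraries. In the same library 4 Y-linked genes summed to 219.8 CPM, against 258 to 277 CPM in the other libraries. Whether this pool held some XX tissue was not tested, so its values are those of the library labelled cKO replicate 3, and fold changes are also given without it. The p-values measure the spread between pooled samples, and the sources used here do not say whether the pools came from separate litters.

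As background, the MAP1 and tau-type proteins coat the microtubule lattice and stabilise it, and most of them are known from axons and dendrites. Map4 is the broadly expressed member of the tau-type family. Navigators bind near the growing ends of microtubules and act in cell migration and process outgrowth. Doublecortin and Tubb3 are widely used as markers of young neurons.

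The regions just before the transcription start of Map1b and Nav2 are shown because these genes had the largest fold changes of the set, beside those of their closest relatives Map1a and Nav1. The sequences are from a set of RefSeq promoter windows (GRCm38.p6). That set held windows for 8 of the 10 genes. Mapt and Nav3 were absent from it, although both have transcripts linked to RefSeq. Each sequence covers the 250 bases before a start, written 5′ to 3′ on the strand of the gene. Capitals mark a GC box (GGGCGG) or a TATA box (TATAAA), searched on both strands. The window of Map1a is chr2:121289352-121289601 (plus strand), that of Map1b chr13:99516603-99516852 (minus strand) and that of Nav1 chr1:135585356-135585605 (minus strand). Nav2 has 2 annotated starts, with windows at chr7:48958823-48959072 and chr7:49245939-49246188 (plus strand).
Map1a: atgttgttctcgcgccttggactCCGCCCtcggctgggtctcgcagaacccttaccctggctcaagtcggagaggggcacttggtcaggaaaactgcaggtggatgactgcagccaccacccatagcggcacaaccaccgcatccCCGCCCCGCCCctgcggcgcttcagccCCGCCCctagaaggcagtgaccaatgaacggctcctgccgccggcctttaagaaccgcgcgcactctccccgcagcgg
Map1b: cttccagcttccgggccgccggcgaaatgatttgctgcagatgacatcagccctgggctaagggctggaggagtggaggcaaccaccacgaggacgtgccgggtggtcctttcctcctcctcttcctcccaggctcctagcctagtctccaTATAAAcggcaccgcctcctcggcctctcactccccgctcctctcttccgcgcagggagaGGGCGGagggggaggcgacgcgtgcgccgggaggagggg
Nav1: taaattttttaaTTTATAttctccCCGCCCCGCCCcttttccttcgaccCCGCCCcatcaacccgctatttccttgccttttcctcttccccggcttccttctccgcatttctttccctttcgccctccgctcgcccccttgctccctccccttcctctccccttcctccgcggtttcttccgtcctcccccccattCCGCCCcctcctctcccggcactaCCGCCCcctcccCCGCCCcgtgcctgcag
Nav2, first start: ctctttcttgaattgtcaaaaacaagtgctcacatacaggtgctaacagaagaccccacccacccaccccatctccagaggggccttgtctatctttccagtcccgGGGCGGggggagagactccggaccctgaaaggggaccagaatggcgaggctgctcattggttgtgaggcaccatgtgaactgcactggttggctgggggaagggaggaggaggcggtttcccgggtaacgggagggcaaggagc
Nav2, second start: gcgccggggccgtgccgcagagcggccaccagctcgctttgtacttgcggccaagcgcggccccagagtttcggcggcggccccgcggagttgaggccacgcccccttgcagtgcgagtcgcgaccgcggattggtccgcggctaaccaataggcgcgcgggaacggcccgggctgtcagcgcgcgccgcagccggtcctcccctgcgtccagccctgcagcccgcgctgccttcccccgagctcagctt

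The Map1b window held 1 GC box and 1 TATA box, whereas the Map1a window held 4 GC boxes and no TATA box. The first Nav2 window held 1 GC box, the second held none, and neither held a TATA box. The Nav1 window held 6 GC boxes and 1 TATA box. Across 32851 windows of the same length, 32.7% held a GC box and 12.4% a TATA box. The GC content was 66.0% for Map1a, 66.4% for Map1b, 62.4% for Nav1, and 58.8% and 74.4% for the Nav2 starts, against a median of 52.4% over all windows. The nuclear receptor motif AGGTCA, which 14.0% of all windows held, was found in none of these windows. The core of RE1, the element bound by the repressor of neuronal genes REST, was also found in none, and 0.0335% of all windows held it. E-boxes (CANNTG), held by 66.2% of all windows, were found in the windows of Map1a (2), Map1b (1) and the first Nav2 start (3). These matches describe letters in these windows only.

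In control testes the 10 genes covered a wide range of levels. To compare genes, CPM values were divided by exon length in kilobases (RPKM), with lengths of the transcripts linked to RefSeq in the mm10 annotation, since the deposited table held none. Map4 was the highest, at 29.8 ± 0.676 RPKM (SD, n = 3), followed by Nav1 at 17.6 ± 1.47, Nav2 at 14.0 ± 0.764 and Map1b at 12.6 ± 0.471 RPKM (SD, n = 3 each). Map1a (6.22 ± 0.853 RPKM) and Map2 (5.46 ± 0.339 RPKM) formed a middle tier (SD, n = 3 each). Tubb3 was at 2.34 ± 0.291 RPKM, Mapt at 0.945 ± 0.0508, Nav3 at 0.581 ± 0.0591 and Dcx at 0.147 ± 0.00576 RPKM (SD, n = 3 each). Map4 was thus 203-fold above Dcx.

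Of the 9 pairs of neighbours in this order, only Map1a and Map2 had overlapping control ranges. The position of Nav2 depends on its length. With the exons of all annotated transcripts, which sum to 32228 rather than 11389 bases, Nav2 was at 4.93 RPKM, below Map1b (9.39 RPKM) and Map1a (6.09 RPKM).

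**Figure D1:**
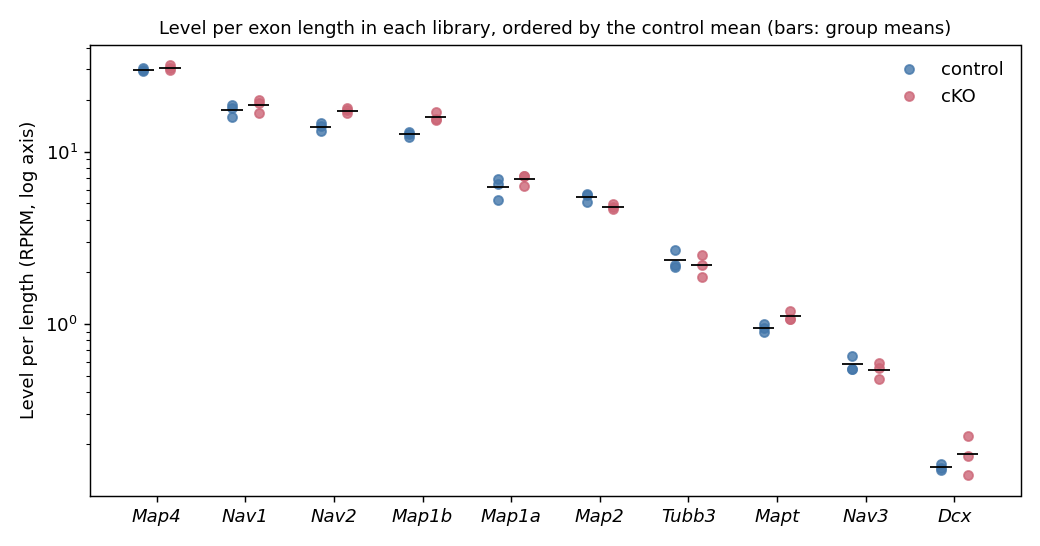
Level per exon length (RPKM, log axis) of the 10 genes in each library, control in blue and cKO in red, with bars at the group means. Genes are ordered by their control mean, from Map4 at 29.8 RPKM to Dcx at 0.147 RPKM.

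The comparison of cKO with control asked whether RNAs of these families differ when Ppp1r3c is deleted with Sf1-Cre. Map1b and Nav2 were higher in every cKO library than in every control library, with means 26.4% and 24.2% above those of control. Mapt was also higher in every cKO library, as were 8.42% of all tested genes. Map2 was lower in every cKO library, as were 7.17% of all tested genes. None of the 10 genes passed the threshold of an adjusted p (FDR) of 0.05 in the main test, the quasi-likelihood test of edgeR, which called 0.0385% of all 15577 tested genes. Among the 8 genes not chosen from this contrast, 0 were higher and 1 (Map2) was lower at an unadjusted p under 0.05, against 11.4% of all genes (5.56% higher and 5.80% lower). DESeq2, the study's tool, called none of these 8 genes and called both genes that the rule had chosen, against 0.779% of all genes (0.400% higher), and limma-voom called 0 of the 10, against 0.0449%. Nothing is read from the calls of Map1b and Nav2, which belong to the contrast that put them in the set.

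Map1b encodes a MAP1 heavy chain that is abundant in growing axons. Its mm10 position is chromosome 13, minus strand, 99421464 to 99516602. It was at 149, 143 and 154 CPM in control replicates 1 to 3 and at 199.7, 183 and 181 CPM in cKO replicates 1 to 3. The lowest cKO library thus lay above the highest control library. The group means were 149 ± 5.57 and 188 ± 10.04 CPM (SD, n = 3 each), and the log2 fold change was 0.34 (SE 0.0573). Leaving out single libraries moved it between 0.29 (without cKO replicate 1) and 0.36 (without cKO replicate 3).

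Map1a, the relative of Map1b that is best known from mature neurons, lies on the plus strand of chromosome 2 (121289602 to 121310832, mm10). It was at 77.1, 62.7 and 82.3 CPM in the control libraries and at 75.4, 85.7 and 86.2 CPM in the cKO libraries. The ranges overlapped, and the control libraries varied more than for Map1b, with a coefficient of variation of 13.7% against 3.74%. The log2 fold change was 0.16 (95% interval -0.073 to 0.38, edgeR FDR 0.579), and it was 0.037 without control replicate 2.

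The balance of the MAP1 pair overlapped between the groups. Map1b made up 67.1% ± 2.31 (SD, n = 3) of the summed RPKM of Map1a and Map1b in control and 69.7% ± 2.67 (SD, n = 3) in cKO testes. The log2 ratio of Map1b to Map1a was 0.96, 1.203 and 0.92 in the control libraries and 1.42, 1.11 and 1.09 in the cKO libraries. A difference in response between the pair is therefore not apparent beyond the spread between libraries, and it was not tested because Map1b was chosen from the contrast.

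**Figure D2:**
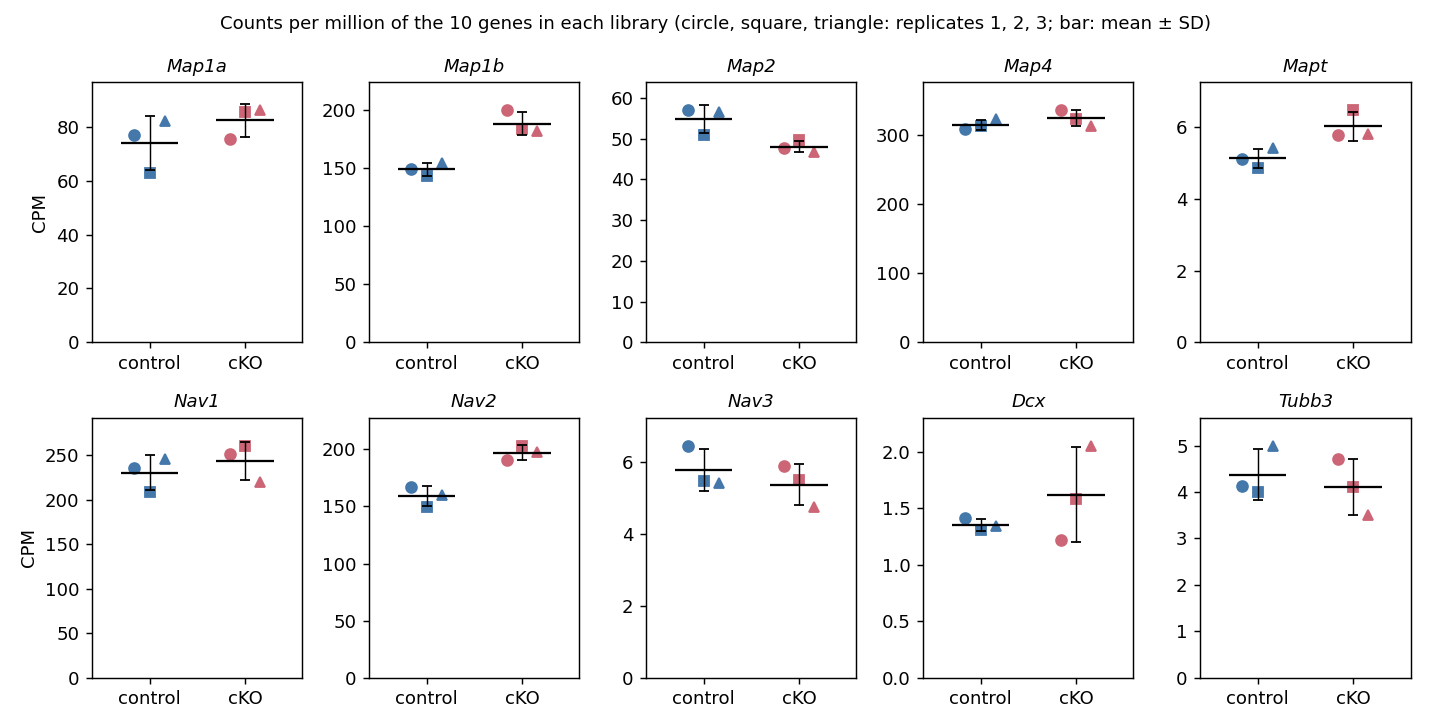
CPM of each of the 10 genes in the 3 control (blue) and 3 cKO (red) libraries, with axes from 0, symbols for the replicate number and a bar with whiskers for the mean and SD. The groups do not overlap for Map1b, Nav2 and Mapt (higher in cKO) and for Map2 (lower in cKO).

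Among the navigators, Nav2 was the gene with the larger difference. Nav2 is known as a gene induced by retinoic acid in neuronal cells. It spans 651 kb on the plus strand of chromosome 7 (48959073 to 49610088, mm10), and reads were summed over the whole gene, so its starts cannot be told apart. Nav2 was at 167, 149.8 and 159.7 CPM in control replicates 1 to 3 and at 191, 203 and 198 CPM in cKO replicates 1 to 3. Every cKO library lay above every control library. The means were 159 ± 8.70 and 197 ± 6.34 CPM (SD, n = 3 each), the log2 fold change was 0.31 (SE 0.0565), and it stayed between 0.26 (without control replicate 2) and 0.35 (without control replicate 1) when single libraries were left out.

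Nav1, the most abundant navigator here, lies on the minus strand of chromosome 1 (135434580 to 135585355, mm10). It was at 236, 209 and 246 CPM in the control and at 251, 261 and 219.7 CPM in the cKO libraries. These ranges overlapped, and the log2 fold change was 0.083 (95% interval -0.098 to 0.27, edgeR FDR 0.713). Nav3 lies on the minus strand of chromosome 10 (109683439 to 110000219, mm10) and was much rarer, at 6.46, 5.48 and 5.42 CPM in the control and 5.89, 5.51 and 4.75 CPM in the cKO libraries. Its log2 fold change was -0.094 (95% interval -0.43 to 0.24, edgeR FDR 0.846), a range wide enough to hold both a decrease and an increase of some size.

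The mean share of Nav2 in the navigator RNA was higher in cKO testes. Nav2 made up 43.5% ± 1.26 (SD, n = 3) of the summed navigator RPKM in control and 47.6% ± 2.30 (SD, n = 3) in cKO testes, while the share of Nav1 was 54.7% ± 1.41 and 50.9% ± 2.20 (SD, n = 3 each). The log2 ratio of Nav2 to Nav1 was -0.29, -0.27 and -0.42 in the control libraries and -0.19, -0.15 and 0.052 in the cKO libraries. The groups did not overlap in this ratio, and its highest value was in cKO replicate 3. Since Nav2 was chosen from the contrast, the ratio is a description. The size of these shares and ratios also depends on the exon lengths used. With the exons of all annotated transcripts, control levels were 4.93 RPKM for Nav2 and 13.3 RPKM for Nav1.

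In the tau-type family, none of the 3 genes passed the threshold. Map2, whose protein is best known from dendrites, lies on the plus strand of chromosome 1 (66175329 to 66442583, mm10). It was at 56.9, 50.9 and 56.6 CPM in the control and at 47.8, 49.5 and 46.7 CPM in the cKO libraries, so that every cKO library lay below every control library. The means were 54.8 ± 3.40 and 48.0 ± 1.42 CPM (SD, n = 3 each), with a log2 fold change of -0.19 (SE 0.0675, 95% interval -0.34 to -0.038). Map2 had an unadjusted p of 0.0197 and did not pass the threshold (edgeR FDR 0.382). The unadjusted p was at most 0.0610 (without cKO replicate 3) when single libraries were left out, and the log2 fold change stayed between -0.25 and -0.16.

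Map4 encodes the tau-type protein of dividing and non-neuronal cells and lies on the plus strand of chromosome 9 (109931774 to 110083954, mm10). It was at 308, 313 and 322 CPM in the control and 336, 323 and 313 CPM in the cKO libraries. This was the most precisely measured gene of the set, with a log2 fold change of 0.041 (95% interval -0.072 to 0.15, edgeR FDR 0.783). Mapt, which encodes tau, lies on the plus strand of chromosome 11 (104231436 to 104332090, mm10). Mapt was at 5.11, 4.87 and 5.42 CPM in the control and 5.79, 6.48 and 5.81 CPM in the cKO libraries. The groups did not overlap, but with 83 to 233 counts per library the counting error alone was up to 10.98% of the level. Its log2 fold change was 0.23 (95% interval -0.071 to 0.53, edgeR FDR 0.533).

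The RNAs of Map2 and Mapt were also set against that of Map4. The log2 ratio of Map2 to Map4 per length was -2.45 ± 0.0927 in control and -2.68 ± 0.0549 in cKO testes (SD, n = 3 each). That of Mapt to Map4 was -4.98 ± 0.0598 and -4.79 ± 0.110 (SD, n = 3 each). Neither ratio overlapped between the groups. Map2 and Mapt alone did not overlap either, as for 15.6% of all tested genes in CPM, so the ratios add no separate result. These ratios were not tested. Map4 still made up 82.3% ± 0.868 of the summed RPKM of the family in control and 83.9% ± 0.608 in cKO testes (SD, n = 3 each).

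**Figure D3:**
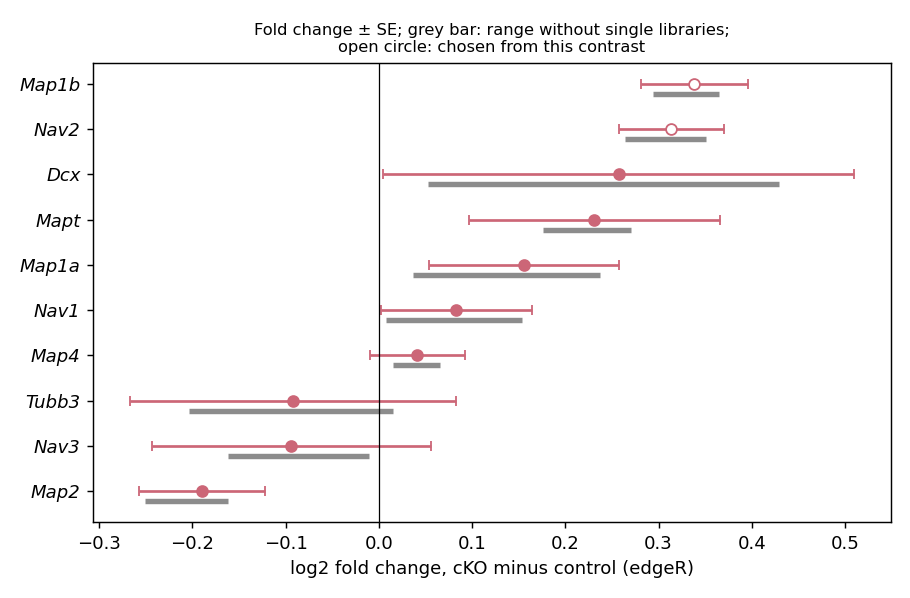
Log2 fold change (cKO minus control, edgeR) with its standard error for the 10 genes, and in grey the range when single libraries are left out. Open circles mark Map1b (0.34) and Nav2 (0.31), which were chosen from this contrast, and Map2 (-0.19) is the lowest.

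The 2 neuronal marker genes of the set were rare and variable. Dcx, on the minus strand of the X chromosome (143855842 to 143933219, mm10), had 23 to 68 counts per library, at 1.42, 1.31 and 1.34 CPM in the control and 1.22, 1.59 and 2.06 CPM in the cKO libraries. Its log2 fold change of 0.26 (95% interval -0.31 to 0.83, edgeR FDR 0.716) was 0.053 without cKO replicate 3. Tubb3, on the plus strand of chromosome 8 (123411564 to 123422010, mm10), was at 4.12, 4.01 and 5.002 CPM in the control and 4.71, 4.12 and 3.51 CPM in the cKO libraries. The log2 fold change of Tubb3 was -0.092 (95% interval -0.49 to 0.30, edgeR FDR 0.874), and its sign changed without control replicate 3 (0.015) or cKO replicate 3 (0.0079). Beta tubulin genes are close paralogs, so the level of Tubb3 is uncertain; reads that match several of them were not examined.

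Among the 8 genes other than Map1b and Nav2, the groups did not overlap for 1 that was higher in cKO testes (Mapt), against 8.42% of all tested genes, and for 1 that was lower (Map2), against 7.17%. Map1b and Nav2 also did not overlap, which the choice of these genes favoured, so they are left out of that count. Over the 10 genes, 7 fold changes were above 0 and 3 below, with a median log2 fold change of 0.12. The 8 genes other than Map1b and Nav2 had a median of 0.062, and the median over all tested genes was -0.0034. For scale, 6.84% of all tested genes had a log2 fold change of at least that of Nav2. That share covers genes of all levels, including rare ones, and genes as abundant as Nav2 were not counted apart.

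Without cKO replicate 3, the library with high Xist and Fst, the log2 fold changes were 0.36 for Map1b, 0.31 for Nav2, 0.26 for Mapt, 0.15 for Nav1, 0.12 for Map1a, 0.066 for Map4, -0.011 for Nav3 and -0.17 for Map2. Those of Mapt and Map2 stayed close to their values with all libraries. Those of Map1b and Nav2 did too, which is only a description, since both genes were chosen from this contrast.

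The patterns of Map1b and Nav2 over the 6 libraries were compared with those of 99 other tested microtubule genes. For Map1b the most similar by Pearson's r of log2 CPM were Map7d3 (0.908), Clasp1 (0.858) and Fign (0.847). For Nav2 they were Mtcl1 (0.965), Fign (0.926) and Kif1b (0.911). These are the highest of many values over only 6 libraries, and they include the difference between the groups. After removal of the group means, r with Map1b was 0.347 for Map7d3, 0.355 for Clasp1 and -0.15 for Fign, and r with Nav2 was 0.917 for Mtcl1, 0.486 for Fign and 0.645 for Kif1b. Map1b and Nav2 had an r of 0.899 with each other over all 6 libraries and of -0.038 after removal of the group means.

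Genes that work with these proteins were then counted in 7 lists of 102 genes, of which 99 were tested. By edgeR 0 of them passed the threshold, and none was called by DESeq2 or limma-voom on all libraries. Of the 99 genes, 9 were higher and 7 lower at an unadjusted p under 0.05, or 16.2% of the 99 genes, against 11.4% of all genes. Their median log2 fold change was 0.022. The groups did not overlap for 10 genes that were higher (8.42% of all genes) and 6 that were lower (7.17%).

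Tubulins are the building blocks, and the 16 other tubulin genes had a median log2 fold change of 0.0080. Of these, 1 (6.25%) was lower at an unadjusted edgeR p under 0.05, against 5.80% of all genes. It was Tube1 (epsilon tubulin of centrioles), with -0.23 (SE 0.0876, edgeR FDR 0.390). The next was Tubb4b, with -0.17 (SE 0.0768, edgeR FDR 0.447). The 16 plus-end tracking proteins, which ride on growing ends, had a median of 0.020. Slain1 had the lowest p among them, with -0.40 (SE 0.152, edgeR FDR 0.397), and Clasp1, a rescue factor, had 0.097 (SE 0.0499, edgeR FDR 0.485).

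The 17 other lattice and minus-end proteins had a median of 0.022 and the widest spread, from -0.72 to 1.09. The highest value, that of Map6, rests on 1 library (cKO replicate 1). At an unadjusted edgeR p under 0.05, 4 were higher and 2 lower. That is 35.3% of the 17, against 11.4% of all genes (5.56% higher and 5.80% lower), and none passed the FDR threshold. The doublecortin-like kinases stood on both sides: Dclk1 had 0.89 (SE 0.302, edgeR FDR 0.377) and Dclk2 had -0.66 (SE 0.202, edgeR FDR 0.377). Dclk1 was at 36.5 to 46.1 CPM in control testes and at 53.7, 49.0 and 122 CPM in cKO replicates 1 to 3. Its highest value was in the library with high Xist, whose makeup was not tested.

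Of the 12 stathmins and severing enzymes, which take microtubules apart, 10 were tested, with a median of -0.011. Fignl2 had 0.33 (SE 0.107, edgeR FDR 0.377) and Fignl1 had -0.20 (SE 0.0677, edgeR FDR 0.380). The kinases of microtubule-associated proteins had 11 tested genes of 12 and a median of -0.011, with Mark1 at -0.21 (SE 0.0861, edgeR FDR 0.418) and Gsk3b, which also acts on glycogen synthase, at 0.14 (SE 0.0630, edgeR FDR 0.439). Tubulin-modifying enzymes (16 genes) had a median of 0.038, with the deacetylase Hdac6 at 0.20 (SE 0.0792, edgeR FDR 0.408) and Ttll11 at -0.93 (SE 0.380, edgeR FDR 0.411). The 13 transport motors had a median of 0.038, with Kif1b at 0.15 (SE 0.0542, edgeR FDR 0.386) and Kif5a at -0.38 (SE 0.180, edgeR FDR 0.454).

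**Figure D4:**
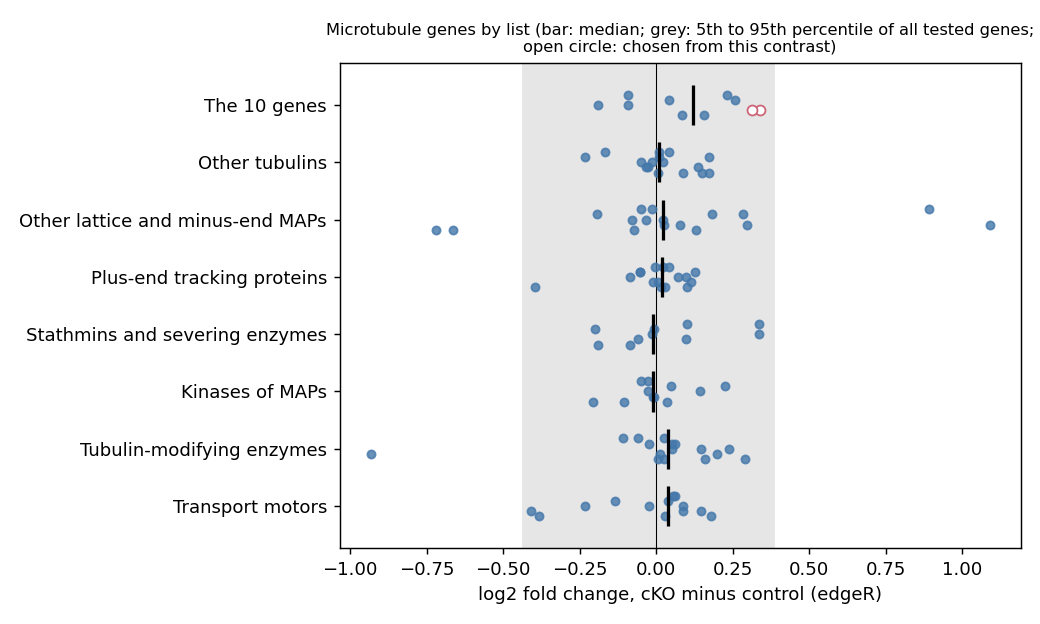
Log2 fold change (cKO minus control, edgeR) of every tested gene in the set of 10 and in 7 lists of other microtubule genes, with bars at the medians and grey for the 5th to 95th percentile of all tested genes (-0.43 to 0.38). The medians of the 7 lists lie between -0.011 and 0.038, and that of the 10 genes, which include Map1b and Nav2 (open circles), at 0.12.

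Since several of these genes are known from neurons, markers of other cells were examined beside them. In bulk RNA, fewer cells of a type and less RNA per cell cannot be told apart. The 12 neuron markers summed to 16.7 to 19.2 CPM in control and 16.3 to 21.5 CPM in cKO testes. Elavl3, Snap25, Th and Prph were at 1 CPM or less in every library, and the 10 tested markers had a median log2 fold change of 0.24, with 6 above 0 and 4 below. Of these 10, 1 had an unadjusted p under 0.05, against 11.4% of all genes. It was Ina (a neurofilament protein), at -0.72 (edgeR FDR 0.377), which is named after its value was seen. The 6 markers of neural crest and glia summed to 201 to 209.9 CPM in control and 189 to 239 CPM in cKO testes, with Foxd3 and S100b at 1 CPM or less. Both ranges overlapped between the groups.

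For some other cell types, values differed with the groups or in single libraries. The 6 germ cell markers were all lower in cKO testes at an unadjusted edgeR p under 0.05, against 5.80% of all genes. Their sum was 394 to 641 CPM in control and 178 to 400.3 CPM in cKO testes. The 6 pre-granulosa markers all had log2 fold changes above 0, and 4 had an unadjusted edgeR p under 0.05. Of all genes, 5.56% were higher at that p. These markers summed to 82.8 to 99.99 CPM in control testes, 100.2 and 97.3 CPM in cKO replicates 1 and 2, and 268 CPM in cKO replicate 3. Of the 6 Sertoli cell markers, 2 had a log2 fold change above 0 and 4 below. An unadjusted edgeR p under 0.05 was reached by 2 of the 6, against 11.4% of all genes. The 5 fetal Leydig markers all had log2 fold changes below 0, with 0 at that p. They summed to 238 to 435 CPM in control and 162 (replicate 3) to 369 CPM in cKO testes. Of the 4 tested mesonephros markers, 2 reached that p, and 3 were higher and 1 lower. The summed mesonephros, interstitial, endothelial and macrophage markers overlapped between the groups. The part of these cell types in the values of Map1b, Nav2, Map2 and the other genes was not tested.

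**Figure D5:**
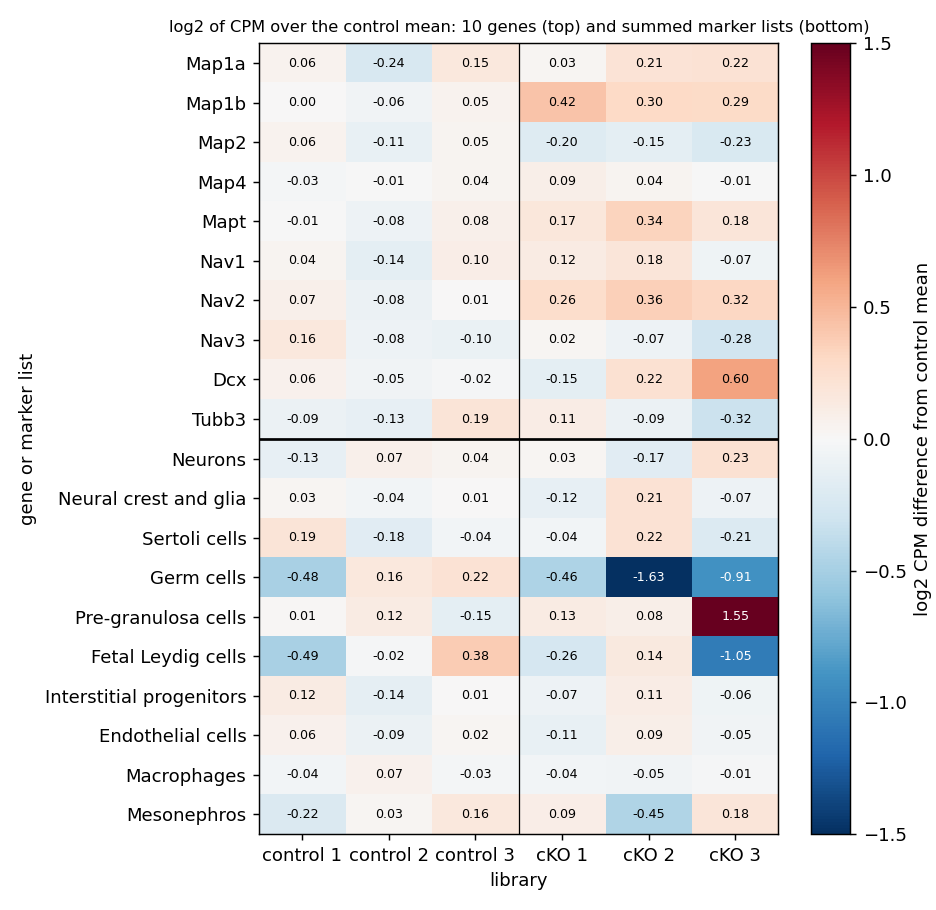
Log2 of the CPM in each library over the control mean for the 10 genes (top) and for summed markers of 10 cell types or tissues (bottom), with colour from blue (lower) to red (higher), saturated beyond 1.5. Map1b and Nav2 are between 0.26 and 0.42 in the cKO libraries, germ cell markers are lowest in cKO replicate 2 (-1.63), and pre-granulosa markers are highest in cKO replicate 3 (1.55).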

How the data were processed

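The deposited values were raw counts of read pairs per gene. The authors prepared stranded mRNA libraries, aligned them to mm10 with STAR (version 2.5 in the submitters' notes), and counted reads on RefSeq genes with featureCounts (Subread 1.5.0-p1), using strand. Sample titles gave the groups and the replicate numbers. The 10 genes and all lists were chosen with earlier results of these data known.

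CPM used library sizes scaled by TMM, and log2 CPM a prior count of 2. The main test was the quasi-likelihood F-test of edgeR (4.0.16, R 4.3.3) on 6 samples after filterByExpr (minimum count 10), which left 15577 genes, with Benjamini-Hochberg adjustment over all of them. The SE was derived from the F statistic. DESeq2 (1.42.0), limma-voom (limma 3.58.1), RLE size factors, no filter, a stricter filter (1 CPM in 3 samples), a replicate block, and runs without single samples (edgeR and DESeq2) were alternatives. The tests were tested on simulated data. A test of 1 value in 3 against 3 samples cannot give an exact permutation p below 0.1. Lengths had been planned from the deposited table, which held none, so RPKM used exon lengths of GENCODE transcripts linked to RefSeq. Named genes were the 10 genes, Ppp1r3c, Xist and Fst, the 2 of lowest p in each list and the 3 most like Map1b and Nav2. Protein sequences were not used here.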

Additional observations from a re-analysis of the deposited data

How the results depend on the processing

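The number of the 10 genes called depended on the tool. It was 0 with edgeR on all libraries, limma-voom, RLE size factors, no filter, the stricter filter and the replicate block, and 0 in all 6 edgeR runs without single libraries. DESeq2 called 2 (the genes the rule chose), and 1 to 2 without single libraries. The lower count was without cKO replicate 3, where DESeq2 called 14 genes (0.0815%) in all. Without other libraries it called 48 to 313 genes (0.311% to 2.99% of those with an adjusted p). The 48 were without control replicate 3, where only 1604 genes had an adjusted p, so that run had the highest share (2.99%). All genes called numbered 6 with edgeR and 111 with DESeq2. The cause was not tested. Of the other microtubule genes, DESeq2 called 0 to 3 without single libraries: Dclk2 and Tubb4b without control replicate 1 (2.15% of all genes called), and Dclk2, Fignl2 and Map7d2 without cKO replicate 1 (2.07% of all genes called). In the DESeq2 run without control replicate 3, only 4 of the 10 genes had an adjusted p.

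Fold changes of the 10 genes kept their sign in the settings run, except Tubb3, which was at 0.015 without control replicate 3 and at 0.0079 (edgeR) or 0.0092 (DESeq2) without cKO replicate 3. The median of the stathmins and severing enzymes ranged from -0.074 to 0.017 without single libraries (-0.054 in DESeq2 without control replicate 1 and -0.051 without cKO replicate 3).

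With exon lengths over all GENCODE transcripts, a choice made after seeing the data, control levels were 20.8 for Map4, 13.3 for Nav1, 9.39 for Map1b, 4.93 for Nav2, 3.33 for Map2, 0.681 for Mapt, 0.380 for Nav3 and 0.107 RPKM for Dcx.

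For replicate numbers 1, 2 and 3, control and cKO deviations from the group mean had correlations of -0.20, -0.27 and -0.13, and the samples share only a number. With the replicate block, 0 of the 10 genes and 0 of the other microtubule genes were called, and the unadjusted p of Map2 was 0.0592. Depth limits Dcx most, at 23 counts in control replicate 1, where the counting error was 20.9%.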

Other observations

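Some microtubule genes outside the set of 10 had values that stood apart in single libraries. These are given as values, and Map6 and Map7d2 were chosen after their values were seen. Map6, whose product protects microtubules from cold, was at 4.89 CPM in cKO replicate 1 (196 counts) and between 0.484 and 1.13 CPM in the other 5 libraries. Its log2 fold change of 1.09 (SE 0.794, edgeR FDR 0.620) thus rests on 1 library.

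Map7d2, whose product recruits kinesin-1 to microtubules, was at 14.0, 19.4 and 22.5 CPM in the control and 16.3, 7.04 and 10.8 CPM in the cKO libraries. Dclk2 was at 17.1, 23.2 and 24.3 CPM in the control and 18.4, 10.6 and 12.04 CPM in the cKO libraries. For both genes, as for the summed germ cell markers (394, 616 and 641 CPM in control, 400.3, 178 and 294 CPM in cKO), the lowest control library was replicate 1, the highest was replicate 3, and the lowest cKO library was replicate 2. These are orders over 3 libraries a group, and how many of all tested genes share them was not counted. Whether germ cells carry these RNAs was not tested.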
